A study of Danio rerio with 2 samples.

Results

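Amino acids and short peptides cross the intestinal epithelium through several families of solute carriers, and the genes of 7 such families were followed through the cell classes of the adult zebrafish intestine. All genes whose symbols start with slc1a, slc3a, slc6a, slc7a, slc15a, slc36a or slc38a were taken, which gave 78 of the 25432 genes counted. Of these, 62 had at least 10 UMIs (unique molecular identifiers, each marking 1 captured transcript) over both libraries and were described, and 16 had fewer. Just inside the limit stood slc38a8a with 10 and slc6a15 with 11 UMIs, and just outside it slc1a6 and slc6a2 with 9 each. The 16 genes left out, among them the neuronal GABA and dopamine carrier genes slc6a1a, slc6a1b and slc6a3, had 0 to 9 UMIs over both libraries and are not described further. The choice used symbols only, and the minimum of 10 UMIs used the total over both libraries. It also takes in slc7a6os, which carries the prefix but is no transporter.

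These carriers work in sequence. At the brush border, peptides enter with protons through the slc15a carriers and neutral amino acids enter with sodium through slc6a carriers, while the light chains of the slc7a family that form paired carriers need an slc3a heavy chain to reach the membrane. Other light chains release amino acids at the basolateral side, and a further set of carriers sits in the lysosome and returns the products of protein digestion to the cytosol. In fish, lysosome-rich enterocytes take up whole protein by endocytosis through cubilin, amnionless and dab2 and digest it inside the cell, whereas other enterocytes absorb what peptidases have cut in the lumen.

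Single cells were captured with a 3′ kit from whole dissociated intestines, in 1 library of WT TL (nod2+/+) fish and 1 library of nod2-/- fish, each a pool of 5 adults of both sexes. The animals were cohoused siblings of an in-cross, and the mutants carry a CRISPR-made germline frameshift allele. The WT library held 5891 cells with 34052268 UMIs (median of 3400 per cell) and the nod2-/- library held 5599 cells with 22244173 UMIs (median of 1940). With 1 library per genotype, variation between fish is unknown, no test between genotypes was possible, and each interval given is a 95% interval for counting error only. The transcript of nod2 itself was counted 139 and 75 times, and such counts cannot show the frameshift.

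Clusters were named from marker genes, which gave 11 classes of at least 50 cells. Enterocytes were the largest, with 2749 WT and 2318 nod2-/- cells in clusters 0, 2, 3, 4 and 6, and lysosome-rich enterocytes numbered 575 and 735 in clusters 5 and 8. Among the 10 leading genes of cluster 8 were 7 of the 10 lysosome-rich markers, cubn, dab2 and lrp2b included. Cluster 5 held 62.1% of the WT and 57.7% of the nod2-/- cells of that class. It had 5 of the 10 markers among its leading genes and was led by fabp6 and slc10a2. Levels of the lysosome-rich class join both clusters. Clusters 2 and 6 had none of their enterocyte markers among their 10 leading genes. The other classes were BEST4 cells (425 and 348 cells), goblet cells (396 and 176), tuft cells (88 and 64), enteroendocrine cells (119 and 166), progenitors (249 and 245), cycling cells (46 and 53), stromal cells (75 and 180), leukocytes (796 and 1085) and pancreatic acinar cells (264 and 27). A cluster of 17 and 75 cells with all 6 endothelial markers was led by keratin genes and stayed without a name, as did 3 other small clusters. The libraries shared 10 cell barcodes.

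Free RNA in the droplets can carry enterocyte transcripts into other classes, which limits how a low level there can be read. Relative to enterocytes, 9 abundant enterocyte genes outside the transporter families, apoa1a and fabp2 among them, kept a median of 4.72% of their level in WT leukocytes and 5.47% in nod2-/- leukocytes. In lysosome-rich enterocytes these medians were 7.86% and 7.10%, and in progenitors 16% and 16.5%. They were far higher in BEST4 cells (38.3% and 53.1%), goblet cells (40.2% and 50.1%), enteroendocrine cells (40.8% and 27.5%) and acinar cells (73.7% and 91.9%). Enterocyte carriers found in those classes are therefore given beside these shares. The 9 genes are also among the enterocyte markers that named the clusters, so their shares in other classes depend partly on that naming. How much of each share is free RNA was not tested. Of 6 abundant acinar genes, the median kept in enterocytes was 0.0925% and 0.192%.

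The transporter genes together made up 0.310% of WT and 0.334% of nod2-/- UMIs. The slc15a peptide carriers alone, 4 genes, held 38.8% of these UMIs, the slc6a family 26.6%, slc3a 14.7% and slc7a 13.5%, while slc38a, slc36a and slc1a held 3.44%, 1.60% and 1.35%. As CPM (UMIs of a gene scaled to 1000000 UMIs of its class), the 62 genes summed to 3767 in WT and 3909 in nod2-/- enterocytes, and to 3200 and 3920 in lysosome-rich enterocytes. In leukocytes they summed to 998.7 and 1001. The map of levels by class shows each gene with at least 100 UMIs.

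**Figure D1:**
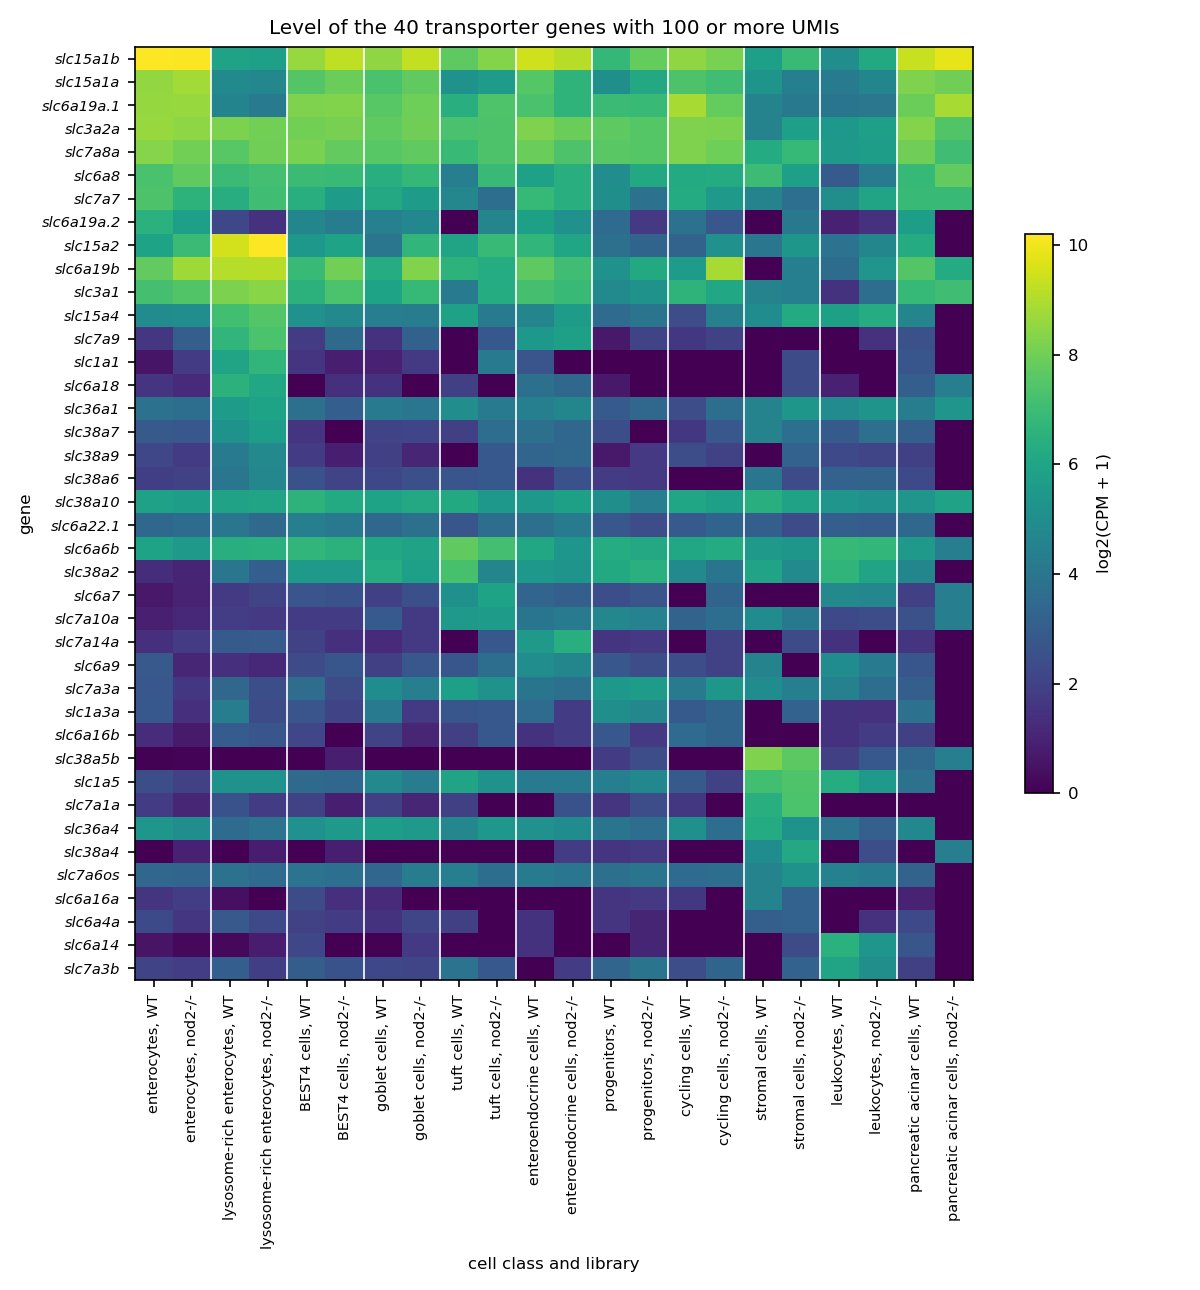
Level of the 40 genes with at least 100 UMIs (rows) in 11 cell classes, each with a WT and a nod2-/- column, as log2(CPM + 1) in colour. The peptide carrier slc15a1b is brightest in enterocytes (1173 and 1126 CPM) and slc15a2 in lysosome-rich enterocytes (726.5 and 1185 CPM), while slc38a5b is brightest in the stromal columns at 303.2 and 196.9 CPM.

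Ranked by the mean CPM of both libraries, 8 of the 62 genes (12.9%) were highest in enterocytes, where 3.65% of 19133 genes were. In lysosome-rich enterocytes 11 genes (17.7%) were highest, against 7.6% of all genes. The other shares lay near or below those of all genes, with 14 genes (22.6%) highest in stromal cells against 26.7%, and 5 genes (8.06%) in leukocytes against 11.4%. Tuft and enteroendocrine cells were highest for 9 genes each, progenitors for 3, BEST4 cells for 2 and cycling cells for 1, and goblet and acinar cells for none of the 62. The highest class was the same in each library for 40 of the 62 genes, and for 32 of the 40 genes with at least 100 UMIs. The shares come from small classes with few UMIs as well as large ones, so a gene at a few UMIs can rank first in tuft or stromal cells.

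**Figure D2:**
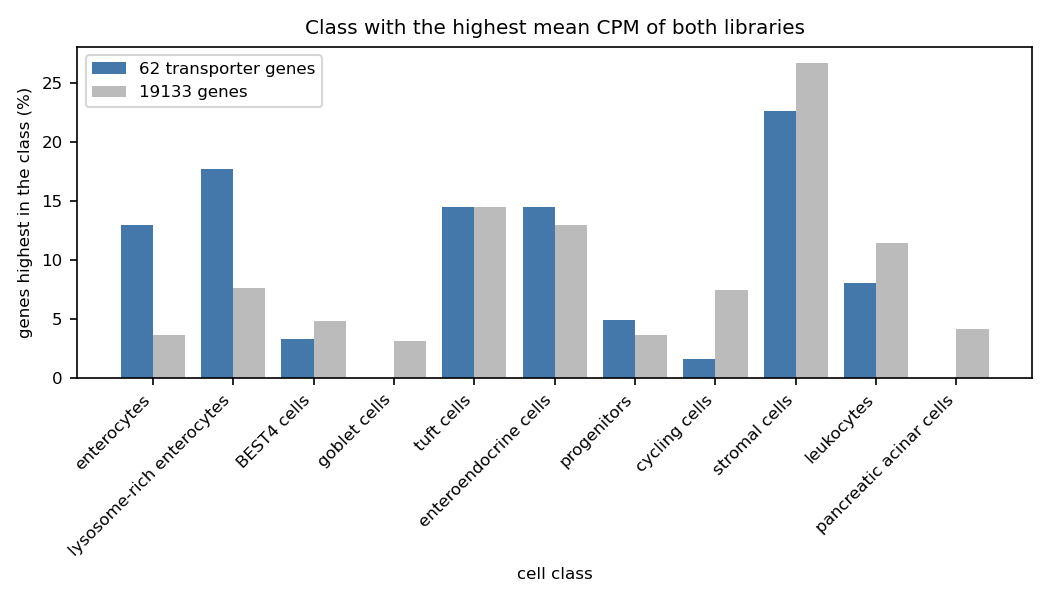
Share of genes (%) whose highest mean CPM of both libraries falls in each of 11 classes, for the 62 transporter-family genes (blue) and for 19133 of the 19146 genes with at least 10 UMIs (grey), those counted in at least 1 of the 11 classes. The blue bars stand above the grey ones in enterocytes (12.9% against 3.65%) and lysosome-rich enterocytes (17.7% against 7.6%).

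The peptide carriers divided the absorptive epithelium. The paralogs of PEPT1, the low-affinity high-capacity carrier of dipeptides and tripeptides, were enterocyte genes, while slc15a2, the gene of the high-affinity carrier PEPT2 known best from the mammalian kidney, was a lysosome-rich gene. For slc15a1b (ENSDARG00000044528) enterocytes had 21233 WT and 13526 nod2-/- UMIs, or 1173 and 1126 CPM, and lysosome-rich enterocytes had 58.5 and 53.7 CPM. The log2 ratio of lysosome-rich to other enterocytes was -4.33 in WT (-4.49 to -4.17) and -4.39 in nod2-/- (-4.59 to -4.20), and the remaining level was below the median share of the free RNA genes there. For slc15a1a (ENSDARG00000100315) the levels were 370.4 and 439.3 CPM in enterocytes and 27.6 and 25.6 CPM in lysosome-rich enterocytes. Across 22 clusters the log2 levels of both paralogs had Pearson's r of 0.96 in WT and 0.93 in nod2-/-, a description over clusters that share a library and enterocyte RNA.

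For slc15a2 (ENSDARG00000032010) the order was the opposite. Lysosome-rich enterocytes had 4135 and 4765 UMIs, or 726.5 and 1185 CPM, and enterocytes 59.4 and 125.1 CPM, a log2 ratio of 3.61 (3.51 to 3.71) in WT and 3.24 (3.16 to 3.33) in nod2-/-. Cluster 8, the cluster with the higher lysosome-rich markers, stood at 1222 and 2019 CPM, and cluster 5 at 526.3 and 808.7 CPM. Among enterocytes slc15a2 was found in cluster 6, with 420.1 and 632.5 CPM, where clusters 0, 2, 3 and 4 had between 3.36 and 35.9 CPM. Cluster 6 therefore carried both types of peptide carrier, since slc15a1b had 1535 and 1156 CPM there.

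Between the genotypes, slc15a2 had the larger ratio of the peptide carriers. Its log2 ratio of nod2-/- to WT was 0.71 (0.65 to 0.77) in lysosome-rich enterocytes, 0.62 (0.53 to 0.71) in cluster 5 and 0.73 (0.64 to 0.81) in cluster 8. In cluster 6 it was 0.59 (0.47 to 0.71), and over all enterocytes 1.07 (0.96 to 1.19). Cluster 6 was also a larger share of the enterocytes in the nod2-/- library, 15.9% against 11.6%, and with the 5 clusters weighted equally the enterocyte ratio was 0.62. For slc15a1b the ratio went different ways by cluster, from -0.41 (-0.48 to -0.34) in cluster 6 and -0.20 (-0.25 to -0.16) in cluster 0 to 0.82 (0.73 to 0.91) in cluster 2, and it was -0.06 (-0.09 to -0.03) over all enterocytes. For slc15a1a it was 0.25 (0.19 to 0.30), positive in clusters 0, 2, 3 and 4 and -0.16 (-0.28 to -0.04) in cluster 6. The study's stated limits of 200 to 2500 UMIs keep 24.6% of WT and 29.0% of nod2-/- enterocytes with 3.97% and 7.08% of their UMIs, and under them slc15a1b turned to 0.92 and slc15a1a to 0.72.

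The fourth member of the family, slc15a4 (ENSDARG00000102612), codes for a peptide and histidine carrier of endosomes and lysosomes, which in mammals has been tied to the handling of bacterial peptidoglycan fragments such as those sensed by NOD2. It had 139.9 WT and 176.6 nod2-/- CPM in lysosome-rich enterocytes, 29.2 and 31.2 CPM in enterocytes and 54.7 and 79.4 CPM in leukocytes. The leukocyte UMIs were mostly those of the macrophage-like cluster 14, with 43 and 79 UMIs or 283.5 and 303.2 CPM, where the log2 ratio between genotypes was 0.10 (-0.46 to 0.67). In the largest leukocyte cluster, cluster 1, there were 11 UMIs in each library. Cluster 14 was 8.29% of WT and 14.4% of nod2-/- leukocytes, beside which the ratio over all leukocytes was 0.54 (0.05 to 1.03). In lysosome-rich enterocytes the ratio was 0.34 (0.19 to 0.48), and -0.02 under the stated UMI limits.

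**Figure D3:**
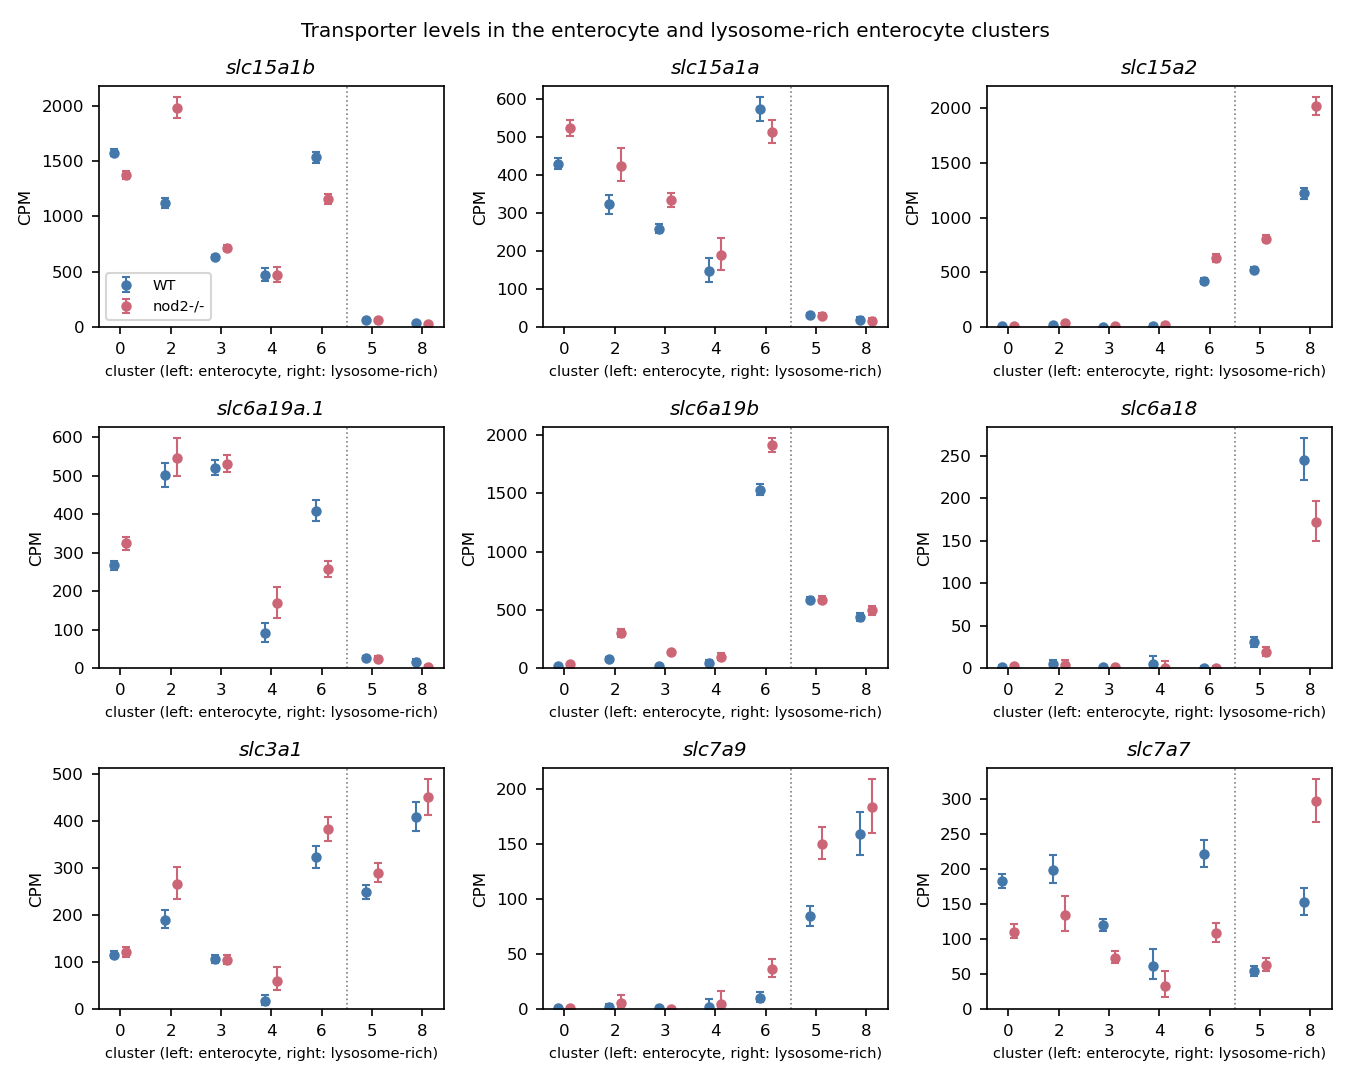
Level in CPM of 9 transporter genes in the 5 enterocyte clusters (0, 2, 3, 4, 6) and, right of the dotted line, the lysosome-rich clusters (5, 8), for WT (blue) and nod2-/- (red), with exact 95% Poisson intervals for counting error as bars. In cluster 8 slc15a2 stands at 1222 and 2019 CPM and slc6a18 at 245.3 and 171.9 CPM, while slc6a19b is highest in cluster 6 at 1531 and 1911 CPM.

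The sodium-coupled carriers of neutral amino acids also differed by class, and here the difference ran between paralogs. SLC6A19, known as B0AT1, is the main brush border carrier of neutral amino acids in mammals. Of its zebrafish genes, slc6a19a.1 (ENSDARG00000018621) had 389.4 and 392.1 CPM in enterocytes and 23.4 and 17.4 CPM in lysosome-rich enterocytes, and slc6a19a.2 (ENSDARG00000091560) had 91.6 and 53.9 CPM against 21 and 7 UMIs. The log2 ratio of lysosome-rich to other enterocytes was -4.06 (-4.32 to -3.81) in WT and -4.49 (-4.85 to -4.15) in nod2-/- for slc6a19a.1, again below the median share of the free RNA genes. By contrast slc6a19b (ENSDARG00000056719) was found in both classes, with 543.8 and 557.3 CPM in lysosome-rich enterocytes and 215.9 and 432.1 CPM in enterocytes. Its log2 ratio between these classes was 1.33 (1.26 to 1.4) in WT and 0.37 (0.29 to 0.44) in nod2-/-. Among enterocytes it was the leading gene of cluster 6, at 1531 and 1911 CPM.

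In the RefSeq gene order, slc6a18, slc6a19a.1 and slc6a19a.2 are neighbours, yet slc6a18 (ENSDARG00000068387) was counted in the other class. Its mammalian counterpart is a neutral amino acid carrier of the kidney. Lysosome-rich enterocytes had 525 WT and 268 nod2-/- UMIs of slc6a18, or 92.2 and 66.7 CPM, and enterocytes, although the larger class, had 36 and 16. The log2 ratio between these classes was 5.54 (5.05 to 6.07) and 5.65 (4.92 to 6.47). Cluster 8 had 245.3 and 171.9 CPM, cluster 5 had 30.4 and 19.1 CPM, and cluster 6, for all its slc6a19b, had 1 UMI in each library.

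Between genotypes these genes differed in direction. In enterocytes slc6a19b had 3909 WT and 5190 nod2-/- UMIs, 215.9 and 432.1 CPM, and a log2 ratio of 1.0 (0.94 to 1.06). It was higher in each of the 5 enterocyte clusters, by 0.32 (0.26 to 0.39) in cluster 6, where most of its UMIs lay, 1.28 (0.91 to 1.65) in cluster 0, 1.93 (1.64 to 2.22) in cluster 2, 3.13 (2.80 to 3.46) in cluster 3 and 1.08 (0.35 to 1.84) in cluster 4. The level in cluster 0 was 14.2 and 34.4 CPM, far below that of cluster 6. How much of the slc6a19b counts outside cluster 6 is free RNA was not tested. With the clusters weighted equally the enterocyte ratio was 0.56. In lysosome-rich enterocytes the ratio was 0.04 (-0.04 to 0.11), but 0.37 as the mean over cells and 0.95 under the stated UMI limits. For slc6a19a.2 the ratio was -0.77 (-0.90 to -0.63), with values from -1.36 to -0.33 in the 5 clusters, and for slc6a19a.1 it was 0.01 (-0.04 to 0.06), with -0.67 (-0.83 to -0.52) in cluster 6. The stated UMI limits turned slc6a19a.1 to 1.19 and left slc6a19a.2 at -0.31. In lysosome-rich enterocytes slc6a18 had -0.47 (-0.69 to -0.25).

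The gene bsg, which codes for basigin, a partner of several carriers, had levels of 132.3 and 142.6 CPM in enterocytes.

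The cystine and dibasic amino acid carrier is a pair of slc3a1 (rBAT) and slc7a9, the genes mutated in human cystinuria, and its parts were not equally spread. For slc3a1 (ENSDARG00000017165) lysosome-rich enterocytes had 295.2 and 340.3 CPM and enterocytes 144.7 and 172.1 CPM, with UMIs in every enterocyte cluster. For slc7a9 (ENSDARG00000005894) lysosome-rich enterocytes had 601 and 645 UMIs, 105.6 and 160.5 CPM, while enterocytes had 37 and 90 UMIs, 2.04 and 7.49 CPM. Of these enterocyte UMIs, 24 and 80 were in cluster 6. The log2 ratio of lysosome-rich to other enterocytes was thus 5.69 (5.21 to 6.21) and 4.42 (4.10 to 4.76) for the light chain, and 1.03 (0.94 to 1.12) and 0.98 (0.88 to 1.08) for the heavy chain. Enteroendocrine cells were second for slc7a9, at 42 and 55.1 CPM. Between genotypes slc7a9 had a log2 ratio of 0.60 (0.44 to 0.77) in lysosome-rich enterocytes, with 0.84 (0.63 to 1.05) in cluster 5 and 0.21 (-0.06 to 0.47) in cluster 8, and slc3a1 had 0.21 (0.10 to 0.31).

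The basolateral heavy chain CD98 has paralogs slc3a2a and slc3a2b, of which slc3a2a (ENSDARG00000036427) was the epithelial one and among the 5 highest genes of every epithelial class. It had 394.6 and 357.0 CPM in enterocytes, 296.4 and 259.7 CPM in lysosome-rich enterocytes and 203.2 and 184.5 CPM in progenitors, whereas slc3a2b had 28 UMIs in all, of which 7 and 12 were in leukocytes. Of the light chains, slc7a8a (LAT2, an exchanger of neutral amino acids, ENSDARG00000075831) followed slc3a2a, with 326.1 and 262.1 CPM in enterocytes, 189.0 and 253.5 CPM in lysosome-rich enterocytes and 193.0 and 180.1 CPM in progenitors. The other LAT2 gene, slc7a8b, had 22 UMIs. The third of these genes, slc7a7 (the y+LAT1 chain that exports dibasic amino acids and is mutated in lysinuric protein intolerance, ENSDARG00000055226), had 164.6 and 96.8 CPM in enterocytes and 82.4 and 135.8 CPM in lysosome-rich enterocytes.

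For slc7a7 the genotypes differed in opposite directions by class. In enterocytes the log2 ratio was -0.77 (-0.87 to -0.67), and it was negative in all 5 clusters, between -1.03 in cluster 6 and -0.56 in cluster 2. In lysosome-rich enterocytes it was 0.72 (0.54 to 0.90), with 0.95 (0.72 to 1.19) in cluster 8 and 0.23 (-0.06 to 0.53) in cluster 5. The order of the classes differed with it, since lysosome-rich enterocytes had the lower level in WT (log2 -1.0, -1.14 to -0.86) and the higher level in nod2-/- (0.49, 0.34 to 0.64). For slc7a8a the same contrast was smaller, -0.32 (-0.38 to -0.25) in enterocytes and 0.42 (0.30 to 0.55) in lysosome-rich enterocytes, and the heavy chain slc3a2a had -0.14 (-0.20 to -0.09) and -0.19 (-0.30 to -0.08). Under the stated UMI limits, with few enterocyte UMIs left, slc7a7 and slc7a8a turned to 0.20 and 0.40 in enterocytes. In lysosome-rich enterocytes slc7a7 was at 0.13 under these limits and at 0.51 as the mean over cells.

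Other light chains were rare in enterocytes or found elsewhere. The gene of LAT1, slc7a5, had 82 UMIs and was highest in enteroendocrine cells (34.7 and 30.03 CPM). The cystine and glutamate exchanger gene slc7a11 had 28 UMIs, 8 WT and 6 nod2-/- of them in the macrophage-like cluster, slc7a6 had 46 and was highest in stromal cells from few UMIs, and slc7a10a (Asc-1) had 213 and was highest in tuft cells, at 44.8 and 48.0 CPM. Its paralog slc7a10b was below 10 UMIs.

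Several further carriers marked the lysosome-rich class. The anionic carrier gene slc1a1 (EAAC1, a glutamate and aspartate carrier, ENSDARG00000020212) had 354 and 422 UMIs in lysosome-rich enterocytes, 62.2 and 105.0 CPM, and 9 and 29 UMIs in enterocytes, a log2 ratio of 6.97 (6.03 to 8.11) and 5.44 (4.90 to 6.04). Between genotypes its log2 ratio was 0.76 (0.55 to 0.96) in lysosome-rich enterocytes and 0.80 (0.53 to 1.06) in cluster 8. A glutamate carrier gene of the same family named after its values were seen, slc1a3a, went the other way, with 107 WT and 17 nod2-/- UMIs in lysosome-rich enterocytes (18.8 and 4.23 CPM) and 109 and 19 in enterocytes, log2 ratios of -2.15 (-2.98 to -1.41) and -1.93 (-2.71 to -1.22). With 6.02 and 1.58 CPM in enterocytes, it lay below the minimum of 20 CPM of the counts of 2-fold ratios in both classes. By the mean CPM of both libraries slc1a3a was highest in progenitors, so it is no marker of the lysosome-rich class.

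Some carriers of the lysosome shared the lysosome-rich class. Besides slc15a4, the proton-coupled carrier gene slc36a1 (PAT1, ENSDARG00000075618) had 47.6 and 60.0 CPM in lysosome-rich enterocytes against 13.4 and 11.9 CPM in enterocytes, and slc38a9 (the arginine sensor of lysosomes that acts on mTORC1, ENSDARG00000032769) had 17.7 and 26.6 CPM, from 101 and 107 UMIs, against 64 and 29 UMIs in enterocytes. A pair of genes chosen after their values were seen had the same pattern, and slc38a6 among them is not taken as a lysosomal carrier. These were slc38a7, the gene of a lysosomal glutamine carrier, with 36.7 and 52.2 CPM in lysosome-rich enterocytes, and slc38a6, with 14.9 and 25.6 CPM. Within the class all 5 were higher in cluster 8 than in cluster 5 in each library, slc15a4 at 275.8 against 84.9 CPM in WT and 342.1 against 101.9 CPM in nod2-/-, slc36a1 at 99.5 against 26.7 CPM and 131.9 against 27.5 CPM, and slc38a9 at 45.8 against 6.42 CPM and 63.2 against 10.1 CPM. Between genotypes these 5 genes had log2 ratios of 0.33 to 0.78 in lysosome-rich enterocytes, each with an interval above 0. The highest ratio was that of slc38a6, from the pair chosen after its values were seen. Under the stated UMI limits slc15a4 was at -0.02. Cluster 8 was 37.9% of the WT and 42.3% of the nod2-/- class.

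The other gene of the proton-coupled family, slc36a4, had another order, with 39.7 and 30.9 CPM in enterocytes, 10.7 and 13.7 CPM in lysosome-rich enterocytes and its highest mean in stromal cells (75.8 and 36.9 CPM, from 10 and 9 UMIs). The creatine carrier gene slc6a8 (ENSDARG00000043646) had 155.5 and 208.7 CPM in enterocytes and 124.9 and 140.8 CPM in lysosome-rich enterocytes, with a log2 ratio between genotypes of 0.42 (0.35 to 0.50) and 0.17 (0.01 to 0.33). In cluster 2 that ratio was 1.07 (0.91 to 1.24), and under the stated UMI limits it was 2.20 over all enterocytes. The taurine carrier gene slc6a6b (ENSDARG00000098438) was broad, from 59.0 and 44.0 CPM in enterocytes to 209.8 and 144.0 CPM in tuft cells, and its paralog slc6a6a had 53 UMIs. The serotonin carrier gene slc6a4a had 183 UMIs and 3.92 and 2.08 CPM in enterocytes.

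Outside the absorptive cells, some classes were highest for some of the genes, in shares near or below those of all genes. Stromal cells were highest for slc38a5b (SNAT5, a glutamine carrier), with 40 WT and 48 nod2-/- UMIs or 303.2 and 196.9 CPM, for slc1a5 (ASCT2, an exchanger of neutral amino acids) at 136.4 and 168.2 CPM, and for slc7a1a (CAT1, a cationic amino acid carrier, the file's gene for slc7a1) at 83.4 and 160.0 CPM. The genotype ratios of all 3 had intervals that include 0, slc38a5b at -0.62 (-1.26 to 0.02). The paralog slc38a5a was highest in the same class, from 4 and 6 UMIs. Enteroendocrine cells, whose hormone-releasing cells share many genes with neurons, were highest for slc38a3a (SNAT3, 26 and 38 UMIs, 47.4 and 95.1 CPM), for slc7a14a (45.6 and 85.1 CPM, named after its values were seen), for slc1a4 (ASCT1, 14.6 and 12.5 CPM) and for slc7a2 (20.1 and 7.51 CPM). For slc38a3a the class that came second among the 11 ranked had a mean 34.8 times lower, and the genotype ratio was 1.0 (0.25 to 1.78). The hepatocyte-like cells, 2 WT and 20 nod2-/- cells, were too few to be ranked. They had 4 and 2 UMIs of slc38a3a (316.7 and 64.4 CPM) and 1 and 4 UMIs of slc7a2 (79.2 and 128.7 CPM).

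In tuft cells slc38a2 (SNAT2) had 53 WT and 4 nod2-/- UMIs, 148.3 and 24.0 CPM, a log2 ratio of -2.63 (-4.55 to -1.19) from 88 and 64 cells. Its level was 71.8 and 89.0 CPM in progenitors and 101.1 and 61.5 CPM in leukocytes. The tuft class, cluster 17, had thy1 and chia.6 among its leading genes beside pou2f3. With 30 principal components thy1 and chia.6 led a separate unnamed cluster of 25 WT and 18 nod2-/- cells, and the tuft cluster held 61 and 47. Tuft levels and ratios here are those of the joint class, and slc38a2 was not followed in its parts. The liver carrier gene slc38a4 (SNAT4) had 20 and 65 UMIs in the 2 WT and 20 nod2-/- hepatocyte-like cells, 1584 and 2092 CPM, a class too small to enter the ranking. In the ranked classes it was highest in stromal cells, and slc38a3b was too, each from few UMIs.

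In leukocytes, where the 5 highest genes were slc6a6b (115.0 and 108.4 CPM), slc38a2, slc15a4, slc6a14 and slc1a5, the pattern depended on the cluster. The broad carrier gene slc6a14 (ENSDARG00000029866), whose mammalian product takes up neutral and cationic amino acids, had 99 WT and 46 nod2-/- UMIs, 91.8 and 39.3 CPM, a log2 ratio of -1.23 (-1.76 to -0.71). Of these UMIs 81 and 38 were in cluster 1, where the ratio was -1.01 (-1.60 to -0.43), and the class that came second had a mean 23.0 times lower. For slc1a5 the ratio was -0.83 (-1.35 to -0.31), but 43 of the 85 WT UMIs came from cluster 18, which was 7.92% of WT and 3.59% of nod2-/- leukocytes, and within cluster 1 the ratio was -0.11 (-0.89 to 0.67). For slc38a2 it was -0.72 (-1.17 to -0.27). The macrophage-like cluster 14 had its own set, with slc7a7 at 184.6 and 238.0 CPM, slc36a1 at 118.7 and 153.5 CPM and slc3a2a at 197.8 and 157.4 CPM, and in cluster 1 these 3 genes had 18.3 CPM or less.

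Across each class, members with at least 20 CPM in a library were counted where nod2-/- and WT differed 2-fold or more, beside all genes with the same minimum. In enterocytes 15 members were measured, 0 were lower, where 3.61% of 3827 genes were, and 2 were higher (slc15a2 and slc6a19b), where 1.83% were. The minimum leaves out rarer members, of which slc6a9, a glycine carrier gene, had 112 WT and 14 nod2-/- UMIs in enterocytes (-2.41, -3.32 to -1.60) and slc7a3a, a cationic amino acid carrier gene, had 107 and 26 (-1.45, -2.13 to -0.82), both named after their values were seen. In lysosome-rich enterocytes 0 of 21 members were lower and 0 were higher, where 2.04% and 1.93% of 4704 genes were. The median log2 ratio of the members was -0.06 in enterocytes, where all genes had -0.17, and 0.21 in lysosome-rich enterocytes, where all genes had 0.03. In the latter 16 of the 21 members were above 0, a count without the share over all genes beside it. The lysosome-rich member median was 0.05 at a minimum of 5 CPM and 0.02 at a minimum of 10 UMIs. TMM factors, which scale on the bulk of genes, moved every enterocyte ratio by 0.19 and the member median to 0.13, and with the clusters weighted equally no enterocyte member passed 2-fold. Under the stated UMI limits 8 enterocyte members were higher and the member median was 1.19, with no share over all genes to set beside them.

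**Figure D4:**
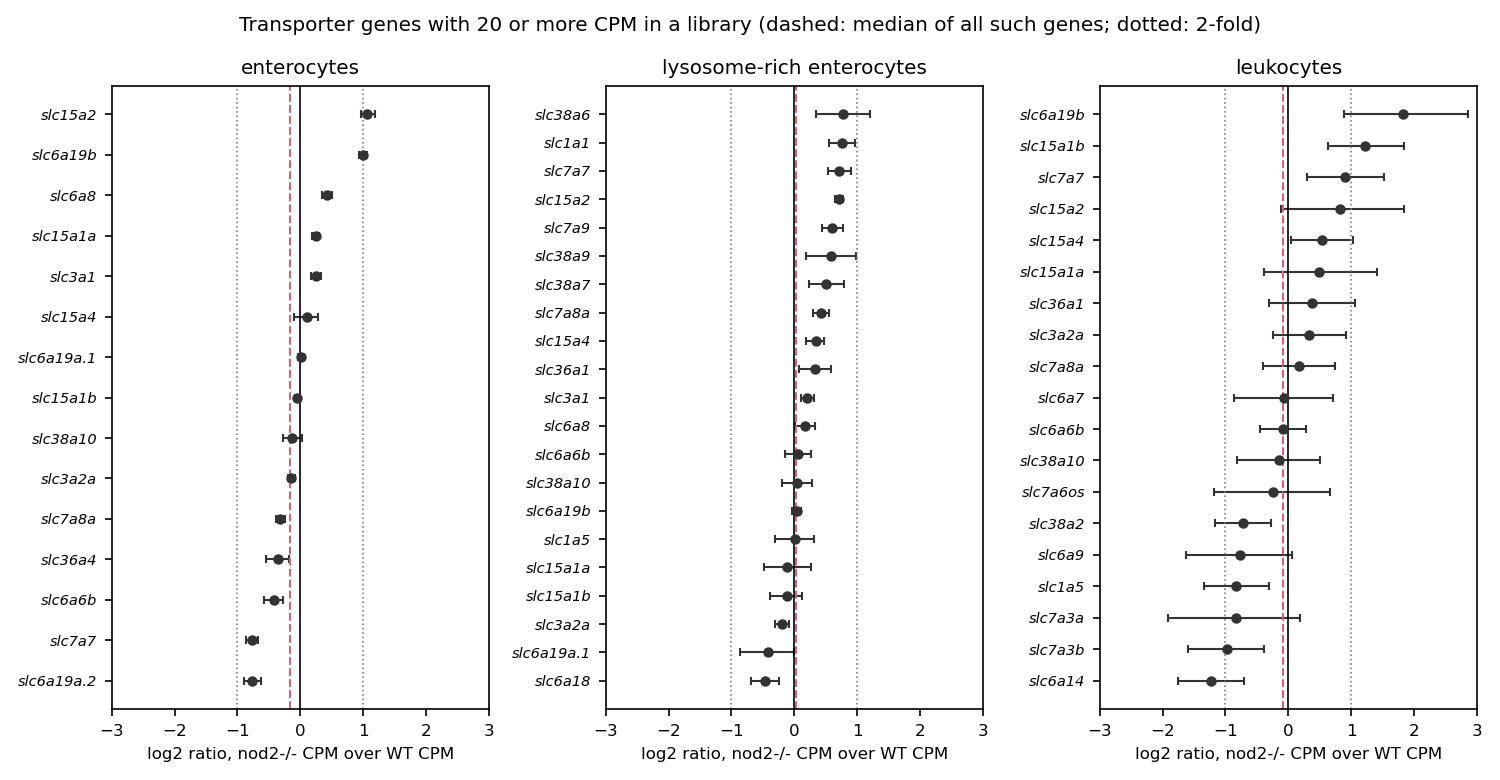
Log2 ratio of nod2-/- CPM over WT CPM for the transporter-family genes that reached 20 CPM in either library, in enterocytes (15 genes), lysosome-rich enterocytes (21) and leukocytes (19), with exact 95% intervals for counting error, the median of all such genes dashed and 2-fold dotted. In enterocytes slc15a2 (1.07) and slc6a19b (1.0) stand highest and slc7a7 and slc6a19a.2 (both -0.77) lowest, and in lysosome-rich enterocytes the points run from -0.47 (slc6a18) to 0.78 (slc38a6).

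Members past 2-fold were also counted in 4 further classes. In BEST4 cells 0 of 17 members were lower (5.04% of 5001 genes) and slc6a19b was higher (2.18%), at 119.7 and 260.6 CPM. In goblet cells 0 of 17 were lower (5.35% of 4525 genes) and slc15a2 and slc6a19b were higher (2.98%), slc15a2 with 33 WT and 92 nod2-/- UMIs and a log2 ratio of 2.79 (2.21 to 3.41), slc6a19b with 1.97 (1.69 to 2.25). The goblet class joins cluster 9 with cluster 24, which had no goblet marker among its 10 leading genes and was 6.57% of WT and 18.2% of nod2-/- goblet cells. For slc15a2 the ratio was 3.18 (2.54 to 3.86) in cluster 9 and 0.62 (-0.98 to 2.37) in cluster 24, and for slc6a19b it was 2.73 (2.41 to 3.05) in cluster 9 and -2.57 (-3.71 to -1.59), from 55 and 10 UMIs, in cluster 24. No free RNA share was computed for genes of lysosome-rich enterocytes such as slc15a2. Against its own enterocyte level slc6a19b was at 37.0% and 72.3% in goblet cells, where the free RNA genes were at 40.2% and 50.1%, and at 55.4% and 60.3% in BEST4 cells, where they were at 38.3% and 53.1%.

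In progenitors 1 of 16 members was lower, slc7a7 with 51 and 12 UMIs and -1.31 (-2.35 to -0.38), where 2.53% of 3912 genes were lower. Higher were 4 members, slc15a1b, slc15a1a, slc6a19b and slc6a8, where 3.32% of genes were. For slc15a1b the progenitor level was 109.0 and 221.9 CPM, which is 9.29% and 19.7% of the enterocyte level beside 16% and 16.5% for the free RNA genes, and slc6a19b was at 16.6% and 16.8%. For slc15a1a the shares were 8.83% and 16%, for slc6a8 20.2% and 34.7%, and for slc7a7 19.9% and 13.6%, where the free RNA genes ranged from 9.45% to 31.0% in WT and from 11.9% to 25% in nod2-/-. In nod2-/- progenitors slc6a8 lay above that range. In leukocytes slc6a14 was the 1 member of 19 that was lower (3.82% of 4480 genes), and slc15a1b and slc6a19b were higher (4.17%), at 31.5 and 73.4 CPM and at 11.1 and 39.3 CPM. Those levels are 2.69% and 6.52%, and 5.15% and 9.09%, of the enterocyte levels, beside 4.72% (1.71% to 5.69% over the 9 genes) and 5.47% (4.11% to 6.51%) for the free RNA genes. In WT leukocytes both carriers thus lay within that range. In nod2-/- leukocytes slc15a1b stood at its upper end and slc6a19b above it. The range is that of enterocyte genes, whereas slc6a19b had 252% and 129% of its enterocyte level in lysosome-rich enterocytes. The part of free RNA in the result was not tested. In the macrophage-like cluster slc6a19b had 0 WT and 22 nod2-/- UMIs. With the WT library set at the limit of 3 UMIs it was 4.27-fold higher, a value that leaves out the counting error of the 22.

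The genes that work beside these carriers were followed as lists, of which those with 20 CPM in a library were counted. The shares over all genes given above for each class have the same minimum and stand beside these counts too. Of the peptidases of the brush border and cytosol 12 of 14 were measured in enterocytes, with 0 past 2-fold either way and a median log2 ratio of -0.22, and 11 were measured in lysosome-rich enterocytes, with 0 past 2-fold and a median of 0.18. The aminopeptidase N gene anpepb had 947.1 and 1203 CPM in enterocytes and 1429 and 1490 CPM in lysosome-rich enterocytes, and the glutamyl aminopeptidase gene enpep had 417.0 and 387.1 CPM and 1145 and 1296 CPM. Paralogous meprin genes differed, with mep1a.1 at -0.67 (-0.72 to -0.61) and mep1a.2 at 0.64 (0.58 to 0.70) in enterocytes. The carboxypeptidase gene cpo was at 173.3 and 126.1 CPM in enterocytes and at 6.85 and 6.72 CPM in lysosome-rich enterocytes. The cytosolic dipeptidase genes cndp2 and pepd had ratios of 0.66 (0.53 to 0.78) and 0.65 (0.57 to 0.72) in lysosome-rich enterocytes and -0.06 (-0.14 to 0.02) and -0.21 (-0.26 to -0.15) in enterocytes.

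Among exporters outside the 7 families, slc43a2b (LAT4, a uniporter of neutral amino acids) had 664.3 and 715.2 CPM in enterocytes and 186.4 and 290.3 CPM in lysosome-rich enterocytes, and slc16a10 (TAT1, for aromatic amino acids) had 230.1 and 260.9 CPM and 200.6 and 229.6 CPM. The cystine exporter gene of the lysosome, ctns, had 84 and 103 UMIs in lysosome-rich enterocytes, a ratio of 0.80 (0.37 to 1.23). Of 7 exporter genes, 2 in enterocytes and 3 in lysosome-rich enterocytes were measured, with 0 past 2-fold and medians of 0.14 and 0.64. Of 5 genes that supply the ion gradients, the 2 sodium pump genes atp1a1a.1 and atp1b1a were measured in each class, with medians of 0.06 and -0.30, and the proton exchanger gene slc9a3.1 had 106 and 29 UMIs in enterocytes.

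Genes of the amino acid response, which is switched on through ATF4 when amino acids run short, were listed with the ATF4 genes atf4a and atf4b among them. Of these 14 genes, 5 were measured in enterocytes and 4 in lysosome-rich enterocytes, with 0 past 2-fold and medians of -0.22 and -0.04. Both asns (82 and 21 UMIs) and mthfd2 (79 and 15 UMIs) stayed below 20 CPM in enterocytes. Their log2 ratios between genotypes were -1.37 (-2.14 to -0.67) and -1.8 (-2.71 to -1.0). Among the genes of this list measured in enterocytes, atf4a had -0.6 (-0.76 to -0.45) and chac1 had 0.44 (0.3 to 0.59). Of 11 genes that sense amino acids at the lysosome, 2 were measured in enterocytes, and 1 was higher, sesn1, which codes for a sestrin that restrains mTORC1, at 31.5 and 158.5 CPM and a log2 ratio between genotypes of 2.33 (2.19 to 2.47). In lysosome-rich enterocytes 5 of the 11 were measured with 0 past 2-fold and a median of 0.29, sesn1 at 103.1 and 179.9 CPM and 0.80 (0.64 to 0.96). In leukocytes 2 of the 6 peptidase genes measured, anpepb and enpep, and 1 of the 3 exporter genes, slc16a10, were higher, where 4.17% of 4480 genes were. Their leukocyte levels were 39.9 and 87.9 CPM for anpepb, 14.8 and 44.4 CPM for enpep and 20.4 and 43.5 CPM for slc16a10. Each is also abundant in enterocytes, and the part of free RNA in these levels was not tested. The ratio of sesn1 in leukocytes was 0.77 (0.56 to 0.98).

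How far partners shared clusters was described over the same 22 clusters. The heavy chain slc3a2a and slc7a8a had Pearson's r of 0.84 in WT and 0.60 in nod2-/-, and slc3a2a and slc7a7 had 0.76 and 0.65. By Spearman's rank correlation the first pair had 0.76 and 0.78, and the second 0.71 and 0.54. For slc3a1 and slc7a9 r was 0.63 and 0.61, and for slc15a2 and slc7a9, which are not partners, it was 0.80 and 0.83. The rank correlations were 0.75 and 0.57 for slc3a1 and slc7a9, and 0.62 and 0.88 for slc15a2 and slc7a9. The lysosomal carriers slc38a7 and slc38a9 had 0.70 and 0.83. In contrast slc15a1b and slc15a2 had 0.02 and -0.32, and slc7a5 had -0.32 and -0.47 with slc3a2a but 0.34 and 0.64 with slc3a2b. With 82 UMIs of slc7a5 and 28 of slc3a2b over both libraries, the values for these genes rest on few UMIs and say little about partnering.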

How the data were processed

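Single-cell RNA-seq of 1 WT and 1 nod2-/- library was analysed. The deposited UMI counts were made by the authors with Cell Ranger 7.0.1 against GRCz11 and are raw and not normalized. Both matrices together hold the number of cells that the paper reports as its high-quality data. The UMI and mitochondrial limits worded in its methods would keep 5124 of them, so how those limits were applied is unclear. All deposited cells were used. With 3′ UMI counts a long transcript is not counted more often than a short one, and CPM of different genes are set side by side on that basis. Differences between genes in capture or in the assignment of reads, close paralogs included, were not tested.

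Cells were clustered with Seurat 5.3.0 in R 4.3.3 (Matrix 1.6.5; 2000 variable genes, both libraries integrated by canonical correlation, 50 principal components, resolution 0.8, 27 clusters), with 131 transporter and pathway genes kept out of the variable genes. Clusters were named from markers. At least 3 markers had to be 2-fold above the median cluster (10 CPM added) and found in 5% of cells. A name was withheld where the 10th leading gene was over 2-fold above the best marker, where another class had more leading markers, where UMIs were low with no leading marker, or where 3 keratins led a class without keratins. This naming rule was changed 3 times after the clusters and their cells had been seen. Scrublet in scanpy 1.11.5 made 0 automatic doublet calls, so no cell was removed for this.

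For every class, the UMIs of its cells were added up within a library with Python 3.11.15 (numpy 2.4.6, pandas 2.3.3, scipy 1.17.1, matplotlib 3.10.9). Levels carry exact Poisson intervals and ratios exact conditional binomial ones, and both were checked on simulated data. A gene at 0 was to be set against 3 UMIs. Members past 2-fold were counted in the 6 classes with at least 50 cells in each library where 20 CPM is at least 10 UMIs, a limit set after the data were seen, and single ratios are given in smaller classes too. TMM factors came from edgeR 4.0.16. Symbols of all 78 genes matched the RefSeq table (GRCz12tu), which was used for names and gene order only. A list of genes of known transport systems was named whatever their values, with the 5 highest members of each class and those past 2-fold. The symbol slc6a20 was not analysed here. A further pathway gene is not reported here. The members, markers, lists and named genes were chosen with earlier results of these data known, and the gene pairs and the genes followed under other settings were chosen after their values had been seen. The count of unassigned columns was 0.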

Additional observations from a re-analysis of the deposited data

Results flagged for a closer look

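The light chain genes slc7a7 and slc7a8a stand out because nod2-/- and WT differed in opposite directions in the absorptive classes, with intervals for counting error that exclude 0 on each side. For slc7a7 the log2 ratio of nod2-/- to WT was -0.77 in enterocytes and 0.72 in lysosome-rich enterocytes. Under the stated UMI limits it was 0.20 and 0.13, so the directions were no longer opposite. For slc7a8a it was -0.32 and 0.42, and 0.40 in enterocytes under these limits. The difference between the classes was not tested, since each genotype has 1 library. Depth was lower in nod2-/- than in WT in each of these classes. Medians were 5322 WT and 3717 nod2-/- UMIs per enterocyte, and 5589 and 3113 per lysosome-rich enterocyte. The part of depth in the result was not tested.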

How the results depend on the processing

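Processing mattered most for the counts of 2-fold ratios and for genes near a ratio of 0. Under the alternatives tried, 109 of the main counts and medians stayed within their limits and 44 moved, and of the ratios of single genes 184 stayed within their interval, 33 moved with the same sign and 8 with an interval that excludes 0 changed sign. Of the 184, 3 with an interval that includes 0 changed sign. As given in the report, 2 members were higher and 0 lower in enterocytes, 0 and 0 in lysosome-rich enterocytes and 2 and 1 in leukocytes, with medians of -0.06, 0.21 and -0.07.

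With TMM scaling the enterocyte median was 0.13, and slc15a1b (0.13) and slc3a2a (0.04) turned positive there. With each cell weighted equally (the mean over cells) the enterocyte median and slc15a1b were both 0.19, 0 members were higher and 2 lower in leukocytes, and 8 were highest in stromal cells. With the clusters of each class weighted equally, a setting chosen after seeing the data, both values were 0.09, 0 members were higher in enterocytes and 6 in leukocytes, and 8 were highest in leukocytes.

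The filter stated in the methods (200 to 2500 UMIs) left 3.97% of WT and 7.08% of nod2-/- enterocyte UMIs, and 3.2% and 10.1% of lysosome-rich UMIs. Under it slc15a1b (0.92), slc7a8a (0.40) and slc7a7 (0.20) turned positive in enterocytes and slc15a4 (-0.02) turned negative in lysosome-rich enterocytes. The medians were 1.19 and 0.44, 8 members were higher in enterocytes and 3 in lysosome-rich enterocytes, 1 was higher and 2 were lower in leukocytes, and 5 were highest in enterocytes, 17 in lysosome-rich enterocytes and 8 in stromal cells.

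In leukocytes 2 members were lower at resolution 0.4 (1 higher), with 30 principal components (0 higher, 8 highest there) and without integration. At resolution 0.4 and with 30 components the macrophage-like cells were not named as leukocytes. With members and pathway genes let in among the variable genes, 1 member was higher in enterocytes.

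At a minimum of 5 CPM, 3 members were lower in enterocytes, 4 in lysosome-rich enterocytes (median 0.05) and 3 in leukocytes, where 6 were higher. At a minimum of 10 UMIs, 7 were lower and 8 higher in enterocytes (median -0.14), 5 and 1 in lysosome-rich enterocytes (median 0.02) and 2 and 6 in leukocytes. At a fold of 1.5, 2 were lower in enterocytes, 6 were higher in lysosome-rich enterocytes, and 6 were lower and 4 higher in leukocytes. Over the members with 50 or more UMIs, 3 were highest in leukocytes and 9 in stromal cells. No share over all genes is given beside the counts under these alternatives, so they cannot be set against a background. The causes were not tested.

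No paired analysis was possible because each genotype has 1 library. Depth limits the small classes most, since stromal cells held 131940 and 243797 UMIs, so 20 CPM there is a handful of UMIs.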
